A study of Glycine max with 18 samples.

Results

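Late maturation embryos of soybean (Glycine max) were compared with early maturation embryos, to tell genes that ended the filling period at another level from genes that only passed through a peak or a dip at mid maturation. The comparison used 6 of the 18 libraries, 3 of late and 3 of early maturation, and 36872 of 51546 gene identifiers had enough signal to be tested. All plants were of the cultivar Williams 82, grown in a greenhouse, and the labels name no mutation, transgene or treatment. Late maturation embryos were taken from seeds of 230 to 500 mg whose coat and embryo were wholly yellow, and early maturation ones were dissected from seeds of 6 to 7 mm. The 3 mid maturation libraries that lie between them came from seeds of 200 to 250 mg, so the weights of late and mid seeds overlap. Cotyledon-stage embryos (seeds of 2.5 to 3.5 mm), mature dry seeds, which are whole seeds by their label, and whole seedlings 8 days after sowing, 3 libraries each, were used for comparison. The labels call the replicates biological and do not say whether they came from separate plants, so p-values measure the spread between these libraries.

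As background, the soybean embryo builds its cotyledons by cell division, then fills them with storage protein and oil, and in the last phase loses its chlorophyll, prepares for drying and becomes dormant. Storage reserves are laid down mainly in the middle of this course, under regulators that include LEC1, ABI3 and FUS3, and protectants such as LEA proteins and raffinose family sugars accumulate toward its end. The identifiers of the files were not paired with gene names by the files or by the gene table used (0 of 51546 matched), so no gene is given a function here and the markers of embryo, seed coat and endosperm were not checked. Genes are described by class, by level and by where they stood at other stages.

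Values are normalized signal, which is reads divided by a scaled library size, the scaling chosen by the authors to make libraries comparable. Recovered reads ranged from 3843336 to 6615868 in the late and from 5122702 to 8776240 in the early maturation libraries. A gene with 3 reads, taken as the floor, had a signal of 0.570 to 0.818 in late and 0.319 to 0.540 in early maturation libraries, so low genes were measured less well at the late stage. Floors cover counting error only. Late maturation replicate 1 stood apart from its group. Across genes, its Pearson's r with the early maturation libraries was 0.601 to 0.636, against 0.549 to 0.597 for late maturation replicates 2 and 3, and its r with the mid maturation libraries was 0.748 to 0.762, against 0.703 to 0.729. In the early group, replicate 3 lay nearest to mid maturation, at 0.863 to 0.879 against 0.827 to 0.853 for the others. Where leaving out a library moved the value of a named gene by over 1.5 times, that value is given beside it.

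Between early and late maturation 18821 genes changed, 51.0% of those tested. In late maturation 7771 genes were higher, 21.1% of those tested, and 11050 were lower, 30.0%. The call required both a difference of at least 1 in log2(signal + 1) and, in limma, a p under 0.05 after Benjamini-Hochberg adjustment. This scale understates the change of genes with low signal. Many changes were moderate: 4278 genes rose and 5372 fell by a log2 difference between 1 and 2. Large ones were also common, since 329 genes rose and 487 fell by 5 or more. The median was 1.87 among genes that rose and -2.04 among those that fell, while the median over all tested genes was -0.18. Late and early replicates did not overlap for 7740 of the risen and 11023 of the fallen genes. The call itself favours such separation, which was not counted over all tested genes, so these counts are descriptions.

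**Figure D1:**
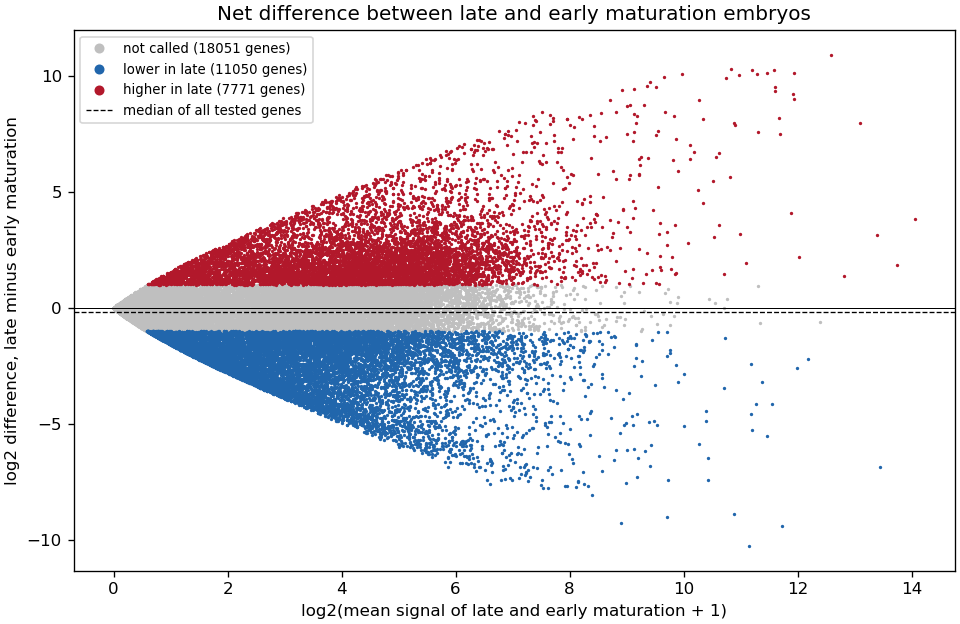
Log2 difference of late minus early maturation for each of 36872 tested genes (vertical axis) against its mean level in both stages (horizontal axis, log2 of signal + 1). Red points are the 7771 genes higher in late maturation and blue points the 11050 lower ones. The dashed line is the median of all tested genes, and differences beyond 10 appear among genes of high mean level.

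The absence of a call did not always mean the absence of a difference. Of the 18051 genes without a call, 8426 had an adjusted p under 0.05 with a difference smaller than 1. For 12395 of the 18051 the 95% confidence interval of the log2 difference lay within 1 in either direction, so a change beyond that limit lay outside the interval. For the others the interval reached past the limit, and a change of that size was neither called nor bounded.

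The largest rise was that of Glyma.06G283900, on chromosome 6 by its identifier. Its signal was 7492, 16688 and 12569 in late maturation replicates 1, 2 and 3, against 4.47, 5.22 and 5.54 in early maturation. The groups were far apart, with 172441 reads in all late libraries together against 122 in the early ones. The log2 difference was 10.91 (SE 0.288, limma adjusted p = 6.24e-18). At mid maturation the signal was still 14.7 ± 5.75 (SD, n = 3), a log2 difference of 1.29 from early maturation, so that most of the change came later. In dry seed the gene was at 4278 ± 1259 and in seedlings at 7.82 ± 3.10.

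Glyma.13G149000 on chromosome 13 followed the same course at a lower level. Its signal was 2239, 4802 and 3856 in late maturation libraries, against 1.38, 1.44 and 2.82 in early maturation libraries. The log2 difference was 10.27 (SE 0.347, limma adjusted p = 1.78e-16). It stood at 17.6 ± 9.83 at mid maturation, 1841 ± 819 in dry seed and 3.23 ± 1.27 in seedlings (SD, n = 3 each). In both genes late maturation replicate 1 had the lowest value of its group.

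Glyma.08G341000 on chromosome 8 had the largest fall. Late maturation libraries gave 1.91, 2.28 and 4.18, against 4230, 4666 and 4618 in early maturation libraries. The log2 difference was -10.26 (SE 0.256, limma adjusted p = 3.03e-18). The gene was high at both filling stages, with 2169 ± 397 at mid maturation (SD, n = 3), and low at the cotyledon stage, at 24.1 ± 8.70. It was therefore high at early and mid maturation and low before and after.

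Glyma.11G153800 on chromosome 11 gave 13.4, 5.13 and 9.67 in late maturation libraries, against 7529, 6882 and 5751 in early maturation libraries. The log2 difference was -9.41 (SE 0.223, limma adjusted p = 1.52e-18). Unlike the gene before it, it was already high at the cotyledon stage, with 815 ± 118, and it was at 2113 ± 345 at mid maturation (SD, n = 3 each). Dry seed and seedling had 4.21 ± 0.617 and 3.20 ± 0.823. The late libraries together held 38 reads of Glyma.08G341000 and 120 of Glyma.11G153800, against 108240 and 162007 in the early ones.

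**Figure D2:**
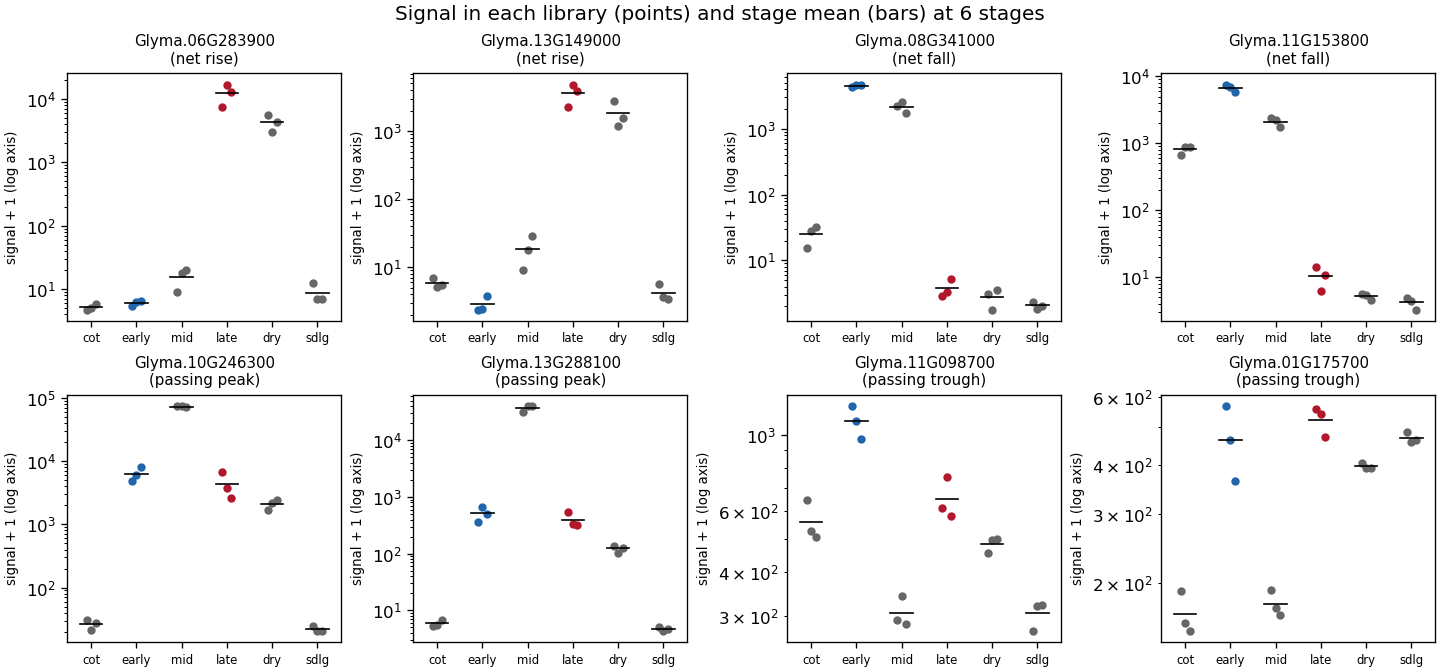
Signal + 1 on a log axis in each of the 18 libraries (points) with the stage mean (bar), for 2 genes each with the largest net rise, the largest net fall, the highest passing peak and the highest passing trough. The stages run from cotyledon (cot) through early, mid and late maturation to dry seed (dry) and seedling (sdlg), with early maturation in blue and late maturation in red. In the genes with a net change the red and blue points lie decades apart, while in those that peaked or dipped at mid maturation they lie close together.

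In the deposited scaling more genes with a net change were called in the later step than in the earlier one. Of the 7771 genes that rose, 5025 (64.7%) were called higher in late than in mid maturation and 2493 (32.1%) higher in mid than in early maturation. Of the 11050 that fell, 6950 (62.9%) were called lower in the later step and 4392 (39.7%) in the earlier one. Over all tested genes, 40.4% were called in the step from mid to late maturation and 26.0% in the step from early to mid maturation. For falls this order depends on the scaling. With scaling by total reads alone, which was chosen after seeing the data, 5388 of 12552 genes with a net fall (42.9%) were called lower in the later step and 8239 (65.6%) in the earlier one. For rises the order held there, with 5312 of 6441 (82.5%) in the later step and 1014 (15.7%) in the earlier one. These steps share libraries with the net comparison, so their calls describe when the change took place and do not bear on whether it did.

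A minority of genes climbed or declined in 2 separately called steps. Among genes with a net rise, 3978 (51.2%) were called in the later step alone, 1468 (18.9%) in the earlier step alone and 931 (11.98%) in both. A further 1184 (15.2%) were called in neither step, so that only the sum of 2 smaller differences passed the limit. Among genes with a net fall, 4552 (41.2%) were called in the later step alone, 2397 (21.7%) in the earlier one alone, 1966 (17.8%) in both and 1674 (15.1%) in neither. By mid maturation the median gene with a net rise had covered 29.1% of its log2 difference (25th to 75th percentile 3.59% to 58.8%), and the median gene with a net fall 36.4% (9.33% to 63.5%). With scaling by total reads alone these medians were 3.87% and 62.1%. The mid maturation mean lay on the far side of the early one, against the net direction, for 1629 genes with a net rise (20.96%) and 2078 with a net fall (18.8%). These shares carry no test, since the early libraries enter both the part and the whole.

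A mid maturation peak was called for 1388 genes, each higher in mid than in early maturation and lower in late than in mid maturation. Of these, 862 (62.1%) had no net call between late and early maturation and are called passing peaks. The other peaks left a trace: 432 (31.1%) ended with a net fall and 94 (6.77%) with a net rise. Mid maturation troughs were fewer, 523 in all, of which 378 had no net call, 116 ended with a net rise and 29 with a net fall. Peaks and troughs rest on the same libraries as the net call and are counts without a test of their own.

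**Figure D3:**
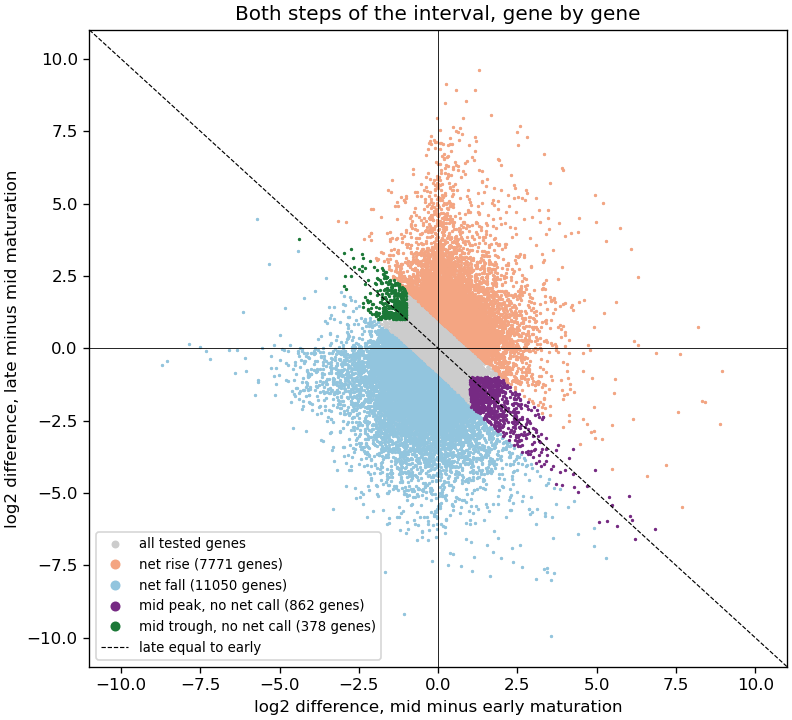
Each point is a tested gene, with its log2 difference of mid minus early maturation on the horizontal axis and of late minus mid maturation on the vertical axis. The dashed line marks genes whose late and early levels are equal. The 862 passing peaks lie along it at the lower right and the 378 passing troughs at the upper left, while genes with a net rise (7771) and a net fall (11050) lie above and below the band around it.

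Return to the early level was close for most passing peaks. Their median log2 difference was 1.59 for mid minus early and -1.73 for late minus mid maturation, which left a median of -0.15 for late minus early. For 583 of the 862 (67.6%) the 95% interval of the net difference lay within 1 in either direction, much like the 68.7% of all genes without a net call. The rule itself kept these differences small, so the share is a description. A smaller net difference with an adjusted p under 0.05 remained in 365 of them, of which 250 ended lower and 115 higher than they began. Most passing peaks were low and modest: 54 of the 862 rose by 3 or more on the log2 scale, and 482 had a mean signal between 1 and 10 over the 9 maturation libraries.

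The highest passing peak was Glyma.10G246300 on chromosome 10. Its signal was 6723, 3808 and 2650 in late maturation libraries, against 4831, 6039 and 8148 in early maturation libraries, and the groups overlapped. At mid maturation it reached 74131, 73404 and 71249. The difference of mid minus early was 3.56 on the log2 scale (SE 0.256, limma adjusted p = 2.38e-10) and that of late minus mid was -4.16. The net difference of -0.60 (95% interval -1.14 to -0.07, limma adjusted p = 0.0391) did not reach the limit of 1. Late maturation replicate 1 had the highest value of its group. Without it the net difference was -0.96 (95% interval -1.41 to -0.52, limma adjusted p = 0.000361), just short of the limit, and the late and early values no longer overlapped. Without late maturation replicate 3 it was -0.29 (limma adjusted p = 0.31), and over the 6 libraries left out in turn it never reached the limit.

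Glyma.13G288100 on chromosome 13 had the higher ratio of peak to ends. Late maturation libraries gave 551, 327 and 313, against 368, 672 and 505 in early maturation libraries. The mid maturation values were 31994, 39798 and 39539, a log2 difference of 6.20 from early maturation (SE 0.204, limma adjusted p = 2.86e-15). The net difference was -0.38 (95% interval -0.81 to 0.04, limma adjusted p = 0.0971). It was -0.64 (95% interval -1.03 to -0.26, limma adjusted p = 0.00368) without late maturation replicate 1, when both late values lay below every early one. Among the other libraries left out in turn it ran from -0.60 without early maturation replicate 1 to -0.17 without early maturation replicate 2. It was -0.24 without late maturation replicate 3. How near this gene came back to its early level thus rests on single libraries. At the cotyledon stage it was at 4.89 ± 0.844 and in dry seed at 123 ± 17.2 (SD, n = 3 each), both below its levels in late and early maturation.

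In the deposited scaling passing troughs were shallower than passing peaks. Their median log2 difference was -1.37 for mid minus early and 1.48 for late minus mid maturation, and 1 of the 378 dipped by 3 or more. The one with the highest early level was Glyma.11G098700 on chromosome 11. It gave 613, 756 and 580 in late maturation libraries, against 1208, 1092 and 973 in early maturation libraries, with no overlap. Mid maturation libraries had 291, 340 and 282. The fall to mid maturation of 1.84 on the log2 scale (SE 0.144, limma adjusted p = 8.06e-10) was only partly made up, and the net difference was -0.75 (95% interval -1.05 to -0.45, limma adjusted p = 7.27e-05).

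In Glyma.01G175700 on chromosome 1 late and early maturation overlapped. Its signal was 555, 539 and 473 in late maturation libraries, against 566, 464 and 363 in early maturation libraries, and 191, 171 and 164 at mid maturation. The difference of mid minus early was -1.38 (SE 0.142, limma adjusted p = 4.58e-08) and the net difference 0.19 (95% interval -0.11 to 0.48, limma adjusted p = 0.24). The net difference was 0.34 (limma adjusted p = 0.0359) without early maturation replicate 1, 0.02 without early maturation replicate 3, and -0.12 with scaling by total reads alone. Troughs depend on the scaling. A small set of genes took up much of the mid maturation reads, and the deposited scaling raised the sum of the mid libraries to between 1542222 and 1603763, against 1047434 to 1257870 for late and 890846 to 933631 for early maturation. Without that scaling, as plain shares of the reads of a library, 1799 passing troughs and 323 passing peaks were called in place of 378 and 862, and the median of all genes for mid minus early moved to -0.55 from -0.06. Depth moved as well. Mid minus early was then -2.61 for Glyma.11G098700 and -2.15 for Glyma.01G175700, and 2.78 for Glyma.10G246300 and 5.43 for Glyma.13G288100.

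By reads, most of the mid maturation peak belonged to genes with a net call. Together the 1388 peak genes held 8.05% ± 2.95 of the reads in late, against 7.91% ± 1.14 in early maturation (SD, n = 3 each), and 52.1% ± 0.634 at mid maturation. The nearly equal shares at both ends hide opposite movements. The 94 peaks with a net rise held 6.18% ± 2.53 in late against 1.17% ± 0.327 in early maturation, and 26.4% ± 0.395 at mid maturation. The 432 peaks with a net fall held 0.410% ± 0.0966 in late against 4.76% ± 0.471 in early maturation, and 14.8% ± 0.172 at mid maturation. The 862 passing peaks held 1.46% ± 0.321 in late against 1.98% ± 0.345 in early maturation, and 10.9% ± 0.167 at mid maturation. Passing peaks were thus 62.1% of the peak genes but 20.9% ± 0.126 of their mid maturation reads. Shares are of reads, with no correction for transcript length, and since the classes were formed on these libraries they are descriptions. Late maturation replicate 1 lay apart here. Peaks with a net rise took 9.07% of its reads, against 5.08% and 4.38% in late maturation replicates 2 and 3.

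Within each peak class a handful of genes carried the reads. Of the passing peaks, the 2 described above made up 7.03% ± 0.135 of the mid maturation reads and the top 10 made up 9.10% ± 0.167. The most abundant gene at mid maturation belonged to the peaks with a net rise. Its signal was 37558, 17133 and 10957 in late maturation libraries, against 4421, 4793 and 7288 in early maturation libraries, and between 162374 and 168537 at mid maturation. It thus peaked at mid maturation and in late maturation was still above its early level, with a net log2 difference of 1.84 (SE 0.393, limma adjusted p = 0.00024). Without late maturation replicate 1 the difference was 1.35 (SE 0.355, limma adjusted p = 0.00168). Of the 94 peaks with a net rise, 83 were still called higher without that library, and 816 of the 862 passing peaks still had no net call.

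**Figure D4:**
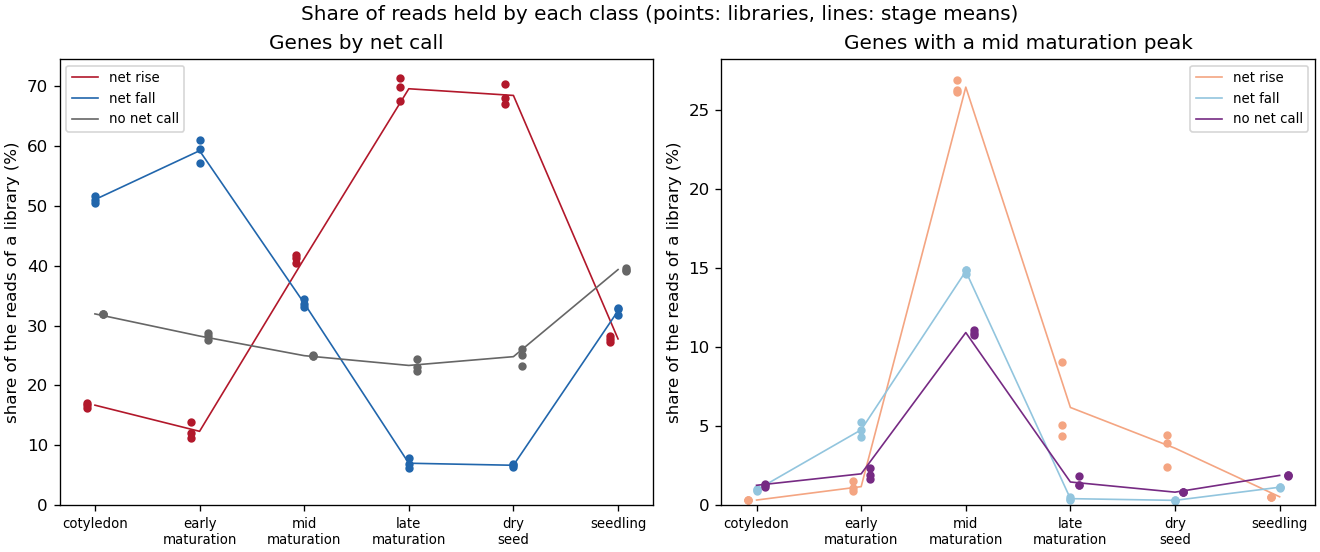
Share of the reads of each library (%, vertical axis) held by genes with a net rise, a net fall or no net call (left) and by mid maturation peaks divided by their net call (right), at the 6 stages in order. Points are libraries and lines join stage means. Genes with a net rise held 69.6% in late and 12.3% in early maturation, and on the right all 3 peak classes reach their maximum at mid maturation.

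Genes with a net rise held most of the reads in late maturation, and genes with a net fall most in early maturation. The calls were made on these same libraries, which set the direction of these shares in advance, so they only describe its size. Genes with a net rise held 69.6% ± 1.89 of the reads in late against 12.3% ± 1.37 in early maturation, and genes with a net fall held 7.00% ± 0.805 against 59.2% ± 1.93 (SD, n = 3 each). Mid maturation, whose levels did not enter the net difference, lay between, at 41.2% ± 0.702 for genes with a net rise and 33.7% ± 0.667 for those with a net fall. Of the mid maturation reads, peaks with a net rise held 26.4% and peaks with a net fall 14.8%. These intermediate shares thus include the peaks and do not trace a gradual net change. Of the 100 most abundant genes of late maturation, 17 were also among the 100 most abundant of early maturation and 35 among those of mid maturation. Of the late maturation 100, 89 had a net rise, 2 a net fall and 9 no net call, and of the early maturation 100, 74 had a net fall, 7 a net rise and 19 no net call. Each list was picked by its level in 1 of the compared stages, which favours these directions. The late maturation 100 held 31.0% ± 0.916 of the reads in late and 6.20% ± 0.544 in early maturation, with 36.2% ± 0.595 at mid maturation. The early maturation 100 held 11.99% ± 2.36 in late and 22.4% ± 0.184 in early maturation, with 47.6% ± 0.448 at mid maturation. Both sets thus held their largest share of the 3 stages at mid maturation. In bulk RNA of a whole embryo, fewer cells of a type and less RNA per cell cannot be told apart, and a larger share of reads is not a larger amount of RNA.

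In the deposited scaling more genes fell to a signal below 1 than rose from below it. A signal of at least 10 in every late library and below 1 in every early library was found for 320 genes, termed switched on. The reverse was found for 854, termed switched off. All of these were among the 36872 tested genes and were called by limma. The counts were not repeated under other scalings, and the higher floor of the late libraries was not corrected for. In the low stage, 16 of the 320 and 75 of the 854 had no read at all in the 3 libraries. At mid maturation 155 of the 320 genes switched on were still below 1 in every library and 14 were at 10 or more in every library. Of the 854 switched off, 252 were still at 10 or more in every mid maturation library and 34 were below 1 in all 3. The highest stage mean was 2000.1 in late maturation among genes switched on and 949.6 in early maturation among genes switched off.

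The same genes were then looked up outside the maturation period. Of the 320 genes switched on, 250 were below 1 in every cotyledon-stage library, 229 were at 10 or more in every dry seed library and 96 in every seedling library. Of the 854 genes switched off, 573 were at 10 or more in every cotyledon-stage library, 759 were below 1 in every dry seed library, and 198 were at 10 or more in every seedling library. Most of the 854 genes switched off were thus present at the youngest stage sampled, and most were below 1 in dry seed. The shares of all tested genes that meet these limits at those stages were not counted, so these counts are descriptions.

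Many genes with a net change differed the same way between dry seed and the cotyledon stage. Between dry seed and the cotyledon stage, which share no library with late or early maturation, 7697 genes were higher in dry seed (20.9% of those tested) and 12586 lower (34.1%). Of the 7771 genes with a net rise, 5088 (65.5%) were higher in dry seed and 244 (3.14%) lower, and 2439 had no call. Dry seed and cotyledon libraries entered the variance estimate and the filter of the model behind both calls. In separate fits with no library in common, added after seeing the data, 4978 of 7275 genes with a net rise (68.4%) were higher and 237 (3.26%) lower in dry seed, and 108 of 10065 with a net fall (1.07%) were higher and 8468 (84.1%) lower. Of all 28632 genes tested in both of these fits, 25.1% were higher and 40.1% lower in dry seed. In the model of all stages, the 5088 genes with a net rise that were higher in dry seed were 66.1% of all genes higher there. Of the 11050 genes with a net fall, 8700 (78.7%) were lower in dry seed, which is 69.1% of all genes lower there, and 111 (1.00%) were higher. The median log2 difference of dry seed minus cotyledon was 1.59 for genes with a net rise and -2.25 for those with a net fall, against -0.27 for all tested genes. Dry seed follows late maturation and the cotyledon stage precedes early maturation, so both comparisons run along the same course of development, and dry seed libraries hold whole seeds where the others hold embryos.

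The genes that passed through a peak or a trough differed from the net groups there. Of the 862 passing peaks, 83 (9.63%) were higher and 277 (32.1%) lower in dry seed than at the cotyledon stage. Of all 18051 genes without a net call, 13.8% were higher and 20.2% lower, and of all tested genes 20.9% and 34.1%. Passing peaks were thus less often higher than either set. Their share of lower genes was above that of genes without a net call but near that of all tested genes. These differences were not tested. Of the 378 passing troughs, 127 (33.6%) were higher and 55 (14.6%) lower. Among peaks with a net rise, 43 of 94 (45.7%) were higher in dry seed and 24 (25.5%) lower. Whether that differs from the other genes with a net rise was not tested.

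**Figure D5:**
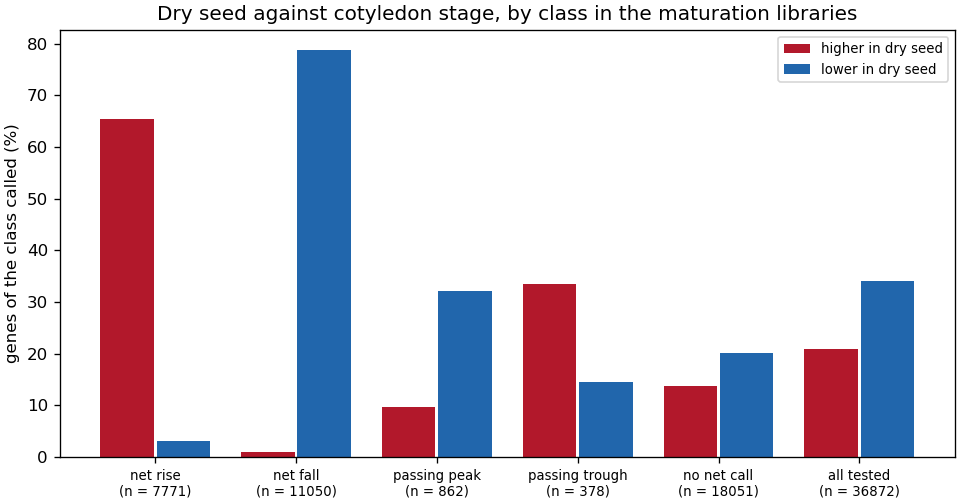
Percentage of genes of each class (bars, vertical axis) called higher (red) or lower (blue) in dry seed than at the cotyledon stage, whose levels did not enter the differences that formed the classes, though the model and its filter covered all 18 libraries. The net rise class reaches 65.5% higher and the net fall class 78.7% lower. Passing peaks show 9.63% higher and 32.1% lower, beside 13.8% and 20.2% of genes without a net call and 20.9% and 34.1% of all tested genes.

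Many genes with a net change stood the other way in seedlings. Between seedling and dry seed, which also share no library with late or early maturation, 15403 genes were higher in seedlings (41.8% of those tested) and 7284 lower (19.8%). Of the genes with a net fall 6857 (62.1%) were higher in seedlings, and of those with a net rise 3898 (50.2%) were lower. Movement the other way was rarer, with 417 (3.77%) of the genes with a net fall lower and 1002 (12.9%) of those with a net rise higher in seedlings. Passing peaks were higher in seedlings in 500 of 862 cases (58.0%). The median level in dry seed was 0.81 on the log2(signal + 1) scale, both for genes with a net fall and for passing peaks. A lower call needs a difference of 1, so most genes of either class could not be called lower in seedlings. Seedlings are whole plants and not embryos, so tissue and stage changed together, and this contrast shares the dry seed libraries with the one before it.

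The median levels followed the same course. On the log2(signal + 1) scale the median level of genes with a net rise was 2.96, 2.72, 3.43, 4.94, 4.83 and 3.75, from cotyledon stage through the 3 maturation stages to dry seed and seedling. The median gene with a net fall stood at 3.89, 3.92, 3.17, 1.24, 0.81 and 3.00 at the same stages. The median passing peak stood at 1.33, 1.48, 3.37, 1.35, 0.81 and 2.82, with its 2 highest values at mid maturation and in seedlings. The median passing trough was at 4.17 in both youngest stages, 2.69 at mid maturation and 4.33 in late maturation.

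Calls were more frequent among abundant genes. Of the 85 genes with a mean signal of 1000 or more over the early, mid and late libraries, 44 (51.8%) rose and 30 (35.3%) fell. Of the 14923 genes between 10 and 100, 4440 (29.8%) rose and 4595 (30.8%) fell. Of the 13924 genes between 1 and 10, 2543 (18.3%) rose and 5487 (39.4%) fell, so that most of the excess of falls over rises lay among genes of low signal. The size of this excess depends on the scaling. It was 3279 genes as deposited, 1183 with upper-quartile scaling (8871 rose and 10054 fell) and 6111 with scaling by total reads alone (6441 rose and 12552 fell). Those are also the genes that the late libraries, with their higher floor, measured least well, and the part of depth in this excess was not tested.

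Genes with a net change were spread over the genome. By the chromosome number in the identifier, and among the 20 chromosomes, the share of tested genes that rose ran from 18.7% on chromosome 2 to 23.2% on chromosome 6, and the share that fell from 27.3% on chromosome 16 to 32.1% on chromosome 2. Passing peaks made up between 1.54% of genes on chromosome 19 and 2.90% on chromosome 20. Genes with neighbouring identifiers shared a call somewhat more often than genes as a whole. In 25751 pairs of tested genes with consecutive numbers, a gene that rose was followed by another that rose in 26.5% of cases, against 21.3% over all pairs. For genes that fell the values were 32.6% and 30.3%, and for passing peaks 4.75% and 2.33%, the last from 28 pairs. The longest unbroken run held 6 genes that rose, on chromosome 16, and 7 that fell, on chromosome 11. Neighbours in soybean include near-identical tandem copies, and how reads that match more than 1 copy were counted is not given in the sources used here.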

How the data were processed

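Polyadenylated RNA was sequenced, per the labels' protocols. The submitters' processing notes name Bowtie 0.12.7 and edgeR 3.0.8, while genome build, annotation and counting are not given there. The deposited values are normalized signal per gene. In each library they are whole multiples of 1 step, the value of 1 read (927825 of 927828 values within 0.05 of a whole read), and the scaling matched trimmed mean of M-values factors recomputed from the reads. Genes with a signal of at least 1 in at least 3 of 18 libraries were fitted with limma 3.58.1 in R 4.3.3, two-sided, on log2(signal + 1), in 1 model of 6 stages with a trend of variance on mean. Benjamini-Hochberg adjustment ran over 36872 genes. The procedure was tested on simulated data in which few genes were changed and none of low signal. That test therefore did not cover changes in low genes or in a large share of genes.

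The comparison, the classes and all lists were chosen with earlier results of these data known. The 20 gene lists could not be applied, since 0 of 51546 identifiers matched the 59048 genes of the table (Glycine max v4.0). The rule named, in the absence of gene names, the 2 risen and 2 fallen genes of largest net difference whose higher stage averaged 50 or more and whose replicates did not overlap. The 2 peaks of highest mid mean, the 2 troughs of highest early mean and the most abundant mid maturation gene were added after their values were seen. Replicate libraries all differed by more than counting noise (lowest chi-square per degree of freedom 1.49). Replicate numbers did not pair the libraries (highest correlation of deviations 0.05), and no label gives a batch. Alternatives covered pseudocount, filter, scaling, block, limit, trend, libraries left out, and edgeR 4.0.16 and DESeq2 1.42.0 on the recovered reads. Scaling by total reads alone, and separate fits of late against early and of dry seed against cotyledon to their own 6 libraries each, were added after seeing the data.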

Additional observations from a re-analysis of the deposited data

How the results depend on the processing

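Of 322 counts recomputed under 24 settings, 272 stayed within 1.5 times the reported count, and leaving out any of the 9 maturation libraries moved none beyond it. Some could hardly move, such as late against early counts with a mid maturation library left out. No gene called in late against early maturation turned its direction in the 23 settings other than the separate fits. Filter, block, limit, trend, the fit to 9 libraries and a mid maturation library left out do not alter that difference. No gene could turn in those settings. Leaving out each library in turn, between 7539 and 7978 rose and between 10979 and 11176 fell. With the replicate block 7771 rose and 11050 fell, and it moved no count by over 1.5 times. edgeR on the recovered reads gave 9132 and 12999 and DESeq2 8625 and 13208.

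Counts that moved are given as higher and then lower genes, then peaks with no net call, a net rise and a net fall, then troughs in the same order. A pseudocount of 4, which shrinks differences of low genes, gave 2570 and 3307 for mid against early maturation, 5091 lower for late against mid, peaks of 522, 52 and 198, and troughs of 156, 32 and 10. A pseudocount of 0.5 gave 184 troughs with a net rise. Scaling by total reads alone, chosen after seeing the data, gave 1649 and 11899 for mid against early, peaks of 323, 34 and 167, and troughs of 1799, 363 and 108. Its counts of 6441 and 12552 for late against early and 8653 and 6070 for late against mid stayed within 1.5 times the reported ones. It moved the median of late minus early to -0.34 from -0.18. With no limit on the difference, looser by construction, mid against early had 8929 and 11376, late against mid 10779 and 13958, peaks 1387, 572 and 1652, troughs 1131, 1105 and 501, and 8168 genes with a net rise were higher in dry seed than at the cotyledon stage. With a limit of 2, stricter by construction, late against early had 3493 and 5678, mid against early 1037 and 1111, late against mid 2175 and 3708, peaks 239, 12 and 40, troughs 29, 2 and 1, and 2111 genes with a net rise and 4419 with a net fall kept their direction between dry seed and cotyledon. edgeR called 175 peaks with a net rise and 790 with a net fall, and 210 and 47 troughs. DESeq2 called 162 and 763 such peaks and 196 troughs with a net rise. The cause was not tested for the count models. Of 276 values of the named genes, 270 kept direction and call. Many of these differences could not change, as several settings leave them as they were. The calls of both passing troughs for mid against early were lost at the limit of 2. With scaling by total reads alone the net difference of Glyma.01G175700 was -0.12 and that of Glyma.11G098700 -1.06, past the limit. With no limit, Glyma.10G246300 and Glyma.11G098700 gained a net call. The gene list alternatives were not run, and the fit to 9 libraries gave no dry seed value. Depth limits low genes more in the late and mid than in the early libraries, with 3 reads worth a signal of up to 0.818 and 1.30, against up to 0.540.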
